A study of Mus musculus with 6 samples.

Results

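H3K9me3 was compared between male and female bone marrow endothelial progenitor cells (EPCs) at the flanks of gene promoters, the stretches that lie 1 to 3 kb from a transcription start site (TSS). The flanks are the autosomal regions that the authors annotated as promoter at 1 to 2 kb or 2 to 3 kb and assigned to a named gene, leaving out predicted genes with Gm or Rik names. This rule took 1830 of the 58511 regions (3.13%), which belonged to 1651 genes, with 967 regions in the nearer band and 863 in the farther one. The cells were Sca-1+/CD31+ EPCs of C57BL/6J mice about 8 weeks old, grown in EGM-2 medium, and were taken from males (M-EPC), from females with ovaries (F-EPC) and from females ovariectomized at about 35 days of age (OVX-EPC). Each group had 2 CUT&Tag libraries made from vials of frozen cells, which nothing in the sources ties to separate mice or cultures, so the spread between them may be technical only.

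H3K9me3 is the trimethylated form of lysine 9 on histone H3. It is laid down by enzymes such as Setdb1 and Suv39h1, is read by HP1 proteins, and is known for silencing repeats, zinc finger gene clusters and genes of other lineages. Active TSSs are usually free of nucleosomes and CpG-rich, whereas the sequence a few kb away is more often ordinary gene body or intergenic DNA, so a flank reports the chromatin a promoter is set in. In CUT&Tag an antibody tethers the Tn5 transposase to the mark.

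The libraries held 288353 to 573821 reads in all regions, and the lowest totals were those of the F-EPC libraries, which are incomplete. F-EPC replicate 1 had no reads beyond a point on chromosome 16 in the chromosome order of the files. F-EPC replicate 2 also stopped, farther on, with reads at Rprl2 on chromosome 3 and 0 at Zfp981 on chromosome 4. Values of F-EPC were therefore used only where both F-EPC libraries had reads, on chromosomes 1, 10 to 15 and part of 16. Within that range F-EPC had 288353 and 252356 reads, M-EPC 200296 and 235301 and OVX-EPC 209015 and 223313, so equal reads in F-EPC stand for a lower level. There the flanks numbered 773 and a flank had a median of 6 to 8 reads per library. On all autosomes the median in M-EPC and OVX-EPC was 7 or 8 reads, which makes a single flank imprecise. Of the 1830 flanks, 707 passed the filter of at least 10 normalised reads in at least 2 libraries in some comparison and 1123 passed in none. The labelled cell type could not be checked on the flanks, since the endothelial marker list had 2 flanks and the progenitor and T and B cell lists had 0, and a silencing mark gives no direct reading of expression.

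By sequence the flanks stood between core promoters (up to 1 kb from the TSS of a named gene) and regions outside promoters, closer to the latter in GC and CpG content and closer to core promoters in repeats and unique words. Their median GC content was 49.6%, compared with 62.5% in 7080 core promoter regions and 47.8% in 45389 autosomal regions outside promoters. The median ratio of observed to expected CpG was 0.189 in flanks, 0.770 in core promoters and 0.146 outside promoters. GC content was above 60% in 7.27% of flanks and in 60.4% of core promoters. Repeats covered a median of 12.8% of a flank, 4.75% of a core promoter and 29.5% of a region outside promoters. A median of 97.9% of the 25-base words in a flank occurred once in the genome, compared with 100% in core promoters and 89.4% outside promoters, and in 8.09% of flanks fewer than 50% did, so that reads there can come from other copies. The flanks at 2 to 3 kb were slightly poorer in GC than those at 1 to 2 kb, with medians of 48.8% and 50.2%.

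Most flanks were not upstream intergenic DNA. By the GENCODE M21 annotation the centre of 51.6% fell in an intron, of 10.2% in a coding exon, of 8.14% in another exon, and 549 flanks lay between genes. The centre was upstream of the nearest TSS of its gene in 48.0%. The gene was protein coding for 1609 flanks (87.9%). By the same annotation the near edge lay 900 to 3100 bp from a TSS of the gene in 95.2% of flanks, nearer in 72 and farther in 15. Chromosome 11 had the most flanks for its regions, 187 of 3446 (5.43%), and chromosome 3 the fewest, 63 of 3385 (1.86%).

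The sequences of 3 flanks are shown as examples: Mex3b and Cdh23, where M-EPC was high, and Sp110, where M-EPC was low. Each is the middle 300 bases of the region on the plus strand of mm10, read from RefSeq's GRCm38.p6, with CpG dinucleotides in capitals. They are Mex3b at chr7:82869588-82869887, Cdh23 at chr10:60303514-60303813 and Sp110 at chr1:85592077-85592376.
Mex3b: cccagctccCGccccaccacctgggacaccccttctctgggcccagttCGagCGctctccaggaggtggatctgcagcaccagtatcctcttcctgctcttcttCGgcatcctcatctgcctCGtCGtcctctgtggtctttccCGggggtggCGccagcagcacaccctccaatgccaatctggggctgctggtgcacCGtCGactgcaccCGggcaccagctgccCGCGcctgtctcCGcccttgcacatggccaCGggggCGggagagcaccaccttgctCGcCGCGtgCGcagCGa
Cdh23: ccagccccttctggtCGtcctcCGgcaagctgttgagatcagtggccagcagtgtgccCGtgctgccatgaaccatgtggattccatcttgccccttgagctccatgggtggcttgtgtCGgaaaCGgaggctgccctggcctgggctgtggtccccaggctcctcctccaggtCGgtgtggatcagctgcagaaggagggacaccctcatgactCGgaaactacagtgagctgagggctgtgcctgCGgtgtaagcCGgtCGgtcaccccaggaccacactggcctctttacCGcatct
Sp110: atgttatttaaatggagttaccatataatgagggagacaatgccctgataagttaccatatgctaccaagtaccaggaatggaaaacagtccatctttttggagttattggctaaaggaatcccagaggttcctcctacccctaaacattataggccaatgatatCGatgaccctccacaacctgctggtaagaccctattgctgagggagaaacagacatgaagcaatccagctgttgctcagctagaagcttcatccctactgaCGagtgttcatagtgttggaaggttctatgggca
The Mex3b window held 21 CpGs, the Cdh23 window 11 and the Sp110 window 2. GC content fell in the same order, at 67.7%, 62.0% and 43.7%. The other flanks that passed a comparison did not follow this order. Where M-EPC was high, their GC content ran from 44.0% in Nr1i3 and H2-Q5 to 63.0% in Unc5a. Where M-EPC was low, it was 46.25% in Cyb5r3 and 54.25% in Lgmn.

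Around the TSS the level was highest within 1 kb upstream once the 15 strongest flanks were set aside, and the flanks lay lower. Strong core promoter regions were kept, so this step lowers the flank bins alone. In the bin from 500 to 0 bp upstream, M-EPC had 76.2 ± 11.4 reads per region at 1000000 autosomal region reads, F-EPC 58.3 ± 6.77 and OVX-EPC 61.9 ± 0.858 (SD, n = 2). With the 15 highest flanks left out, the bin from 2000 to 1500 bp upstream had 47.9 ± 2.34 for M-EPC, 38.2 ± 0.264 for F-EPC and 39.4 ± 0.432 for OVX-EPC. The bin from 1500 to 2000 bp downstream had 39.1 ± 2.21 for M-EPC, 29.7 ± 0.924 for F-EPC and 32.1 ± 3.87 for OVX-EPC. With every flank kept, that bin had 75.6 ± 2.21 for M-EPC, 65.5 ± 1.19 for F-EPC and 68.9 ± 8.17 for OVX-EPC. In F-EPC and OVX-EPC its mean was then above that of the bin from 500 to 0 bp upstream. These higher points come from Aida, Pisd-ps1 and Sfi1, described next. Of the 1651 genes, 520 (31.5%) had both a flank and a core promoter region. In those 520 the flank had a median of 8 reads per library and the core promoter 11, and the flank was the higher of the pair in 34.6%.

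**Figure D1:**
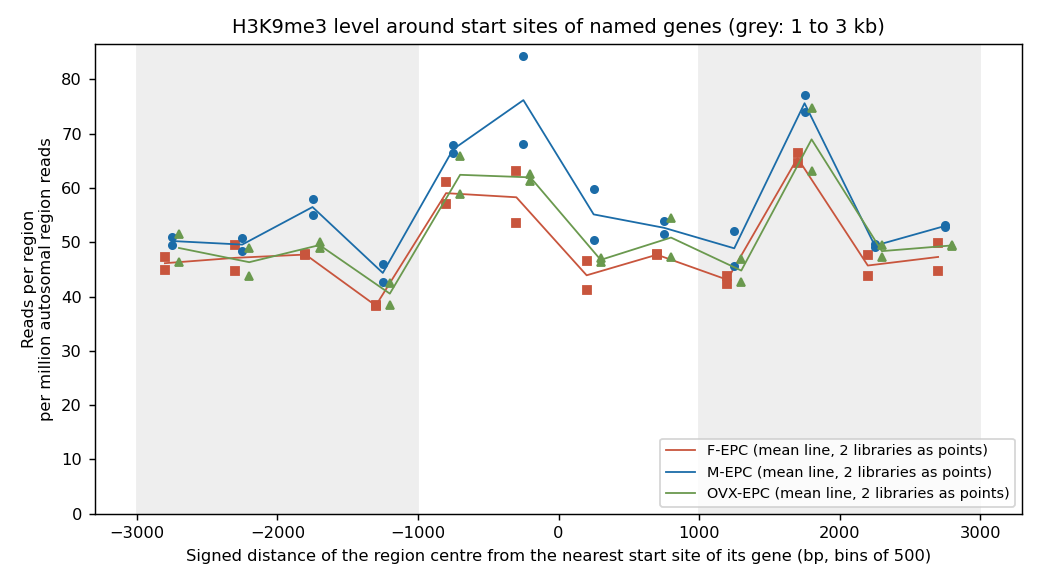
Reads per region, scaled to 1000000 autosomal region reads, against the signed distance of the region centre from the nearest TSS of its gene, in bins of 500 bp, for regions where both F-EPC libraries have reads. Lines are group means, points the 2 libraries, grey the distances of the flanks. M-EPC is highest just upstream of the TSS (76.2), and the peak 1500 to 2000 bp downstream, present in all groups, comes from a few strong flanks.

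A few flanks held many of the reads. The 6 libraries include no control without the antibody, so how much of these reads is the mark was not tested. The highest was the flank of Aida at chr1:183299123-183299522, in an intron, with 249 and 316 reads for M-EPC, 344 and 322 for F-EPC and 307 and 272 for OVX-EPC. Next came a flank of Muc3, a membrane mucin gene, at chr5:137152181-137152580, with 304 and 243 reads for M-EPC and 204 and 235 for OVX-EPC. Neither passed the test in a comparison, and 69.4% and 46.0% of their 25-base words were unique. A stretch near the start of chromosome 11, chr11:3123882-3199293, held 13 flanks of Sfi1, a centrin-binding protein gene with 7 flanks, and of the pseudogenes Pisd-ps1 and Fau-ps2. Of all flank reads these 13 of 773 flanks took 22.0% and 23.9% for M-EPC, 26.2% and 25.6% for F-EPC and 28.2% and 26.2% for OVX-EPC. None of the 13 passed in a comparison. The flank of Sfi1 with the most M-EPC reads, at chr11:3184731-3185130, had 184 and 240 reads for M-EPC, 319 and 249 for F-EPC and 269 and 247 for OVX-EPC. From 37.5% to 100% of the 25-base words in these 13 flanks were unique, so reads may be shared between copies at the lower end. Other genes with several flanks were Mroh2a with 5 and Rprl2, Abr and Zfp950 with 4 each. The 5 flanks of Mroh2a had 19 to 47 reads for M-EPC, 23 to 60 for F-EPC and 19 to 37 for OVX-EPC, and the 4 of Abr, a RhoGEF and GAP gene, had 3 to 11 in every group. None of these passed either.

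To ask whether the mark at flanks differs between female and male cells, F-EPC was compared with M-EPC over 8139 regions, of which 260 were flanks. In all 12 flanks passed, 9 lower and 3 higher in F-EPC, and they were 4.62% of the flanks tested. Over all regions tested, 1.79% passed, 1.62% lower and 0.172% higher. An unadjusted p under 0.05 was found in 26.9% of the flanks tested and 22.8% of all regions tested. Every p-value is from limma on log2(value + 1) with Benjamini-Hochberg adjustment over all regions tested. The lower flanks included those of Cdh23, Ostm1, Zfp85os, Ahnak2, Unc5a, Fnip1, Mgat4e and Nr1i3, and the higher ones were those of Lgmn, Cyb5r3 and Sp110. Fewer cells with the mark and less of the mark per cell cannot be told apart in these bulk libraries. Without M-EPC replicate 1 no flank passed (0), without replicate 2 of M-EPC 4 did, and without F-EPC replicate 1 or 2 the counts were 5 and 4. A flank above the filter in M-EPC alone cannot be tested once an M-EPC library is left out. Ostm1 could be tested only in the 2 fits without an F-EPC library, with log2 fold changes of -2.76 and -1.81. The M-EPC libraries that carry its call were thus never left out. Each other flank named here lost its call in at least 1 fit without a library. DESeq2 called 1 flank and edgeR 14, which included the 12. For such alternatives and left-out libraries, here and below, no share of calls over all regions was taken. Scaling by TMM factors of the tested regions, an alternative chosen after seeing the data, moved the median log2 fold change of all autosomal regions from 0.05 to 0.23 and left 3 flanks, 2 higher and 1 lower, compared with 3 and 9.

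OVX-EPC was compared with M-EPC on all autosomes, where 605 flanks were tested among 16931 regions. Here 6 flanks passed and each was lower in OVX-EPC, 0.992% of the flanks tested. Over all regions 0.449% passed, 0.402% lower and 0.0473% higher. By unadjusted p under 0.05 (limma) the flanks did not stand out, with 16.0% of them and 16.1% of all regions tested. The 6 included Mex3b, Cdh23, Nr1i3, Unc5a and H2-Q5, and 0 were higher. Without either M-EPC library no flank passed (0), and without an OVX-EPC library 2 or 3 did. DESeq2 called 2 flanks, Mex3b among them, and edgeR 5. With TMM factors of the tested regions 4 passed, 3 lower and 1 higher. The higher flanks with the lowest p did not pass. Among them the zinc finger gene Zfp981 had 5 and 14 reads for M-EPC and 27 and 17 for OVX-EPC (adjusted p = 0.171, limma) with 31.6% unique words, and a flank of the RNase P RNA-like gene Rprl2 had 15 and 10 reads for M-EPC and 19 and 30 for OVX-EPC (adjusted p = 0.238, limma).

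With F-EPC and OVX-EPC pooled as female groups and set against M-EPC, in 6 libraries scaled together, 14 of 272 flanks tested passed, 11 lower and 3 higher. This is 5.15% of the flanks, and 3.78% of all 8695 regions tested passed, 2.69% lower and 1.09% higher. The shares with an unadjusted p under 0.05 (limma) were 21.7% of flanks and 22.0% of all regions tested. Igtp, Wipf2 and Cd180 passed here and in neither comparison of a single female group, while Mgat4e did not pass (adjusted p = 0.0514, limma). These comparisons share the M-EPC libraries, so a flank named in several of them is not an independent repeat. Without M-EPC replicate 1 the count was 4, without M-EPC replicate 2 it was 6, and without F-EPC replicate 1 it was 8. Together 17 flanks passed in at least 1 comparison, 10 at 1 to 2 kb and 7 at 2 to 3 kb, and 4 of them in each of the 3 comparisons with M-EPC. Of the 17, 7 consisted wholly of 25-base words found once in the genome, and in 4 under 60% of the words were unique.

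**Figure D2:**
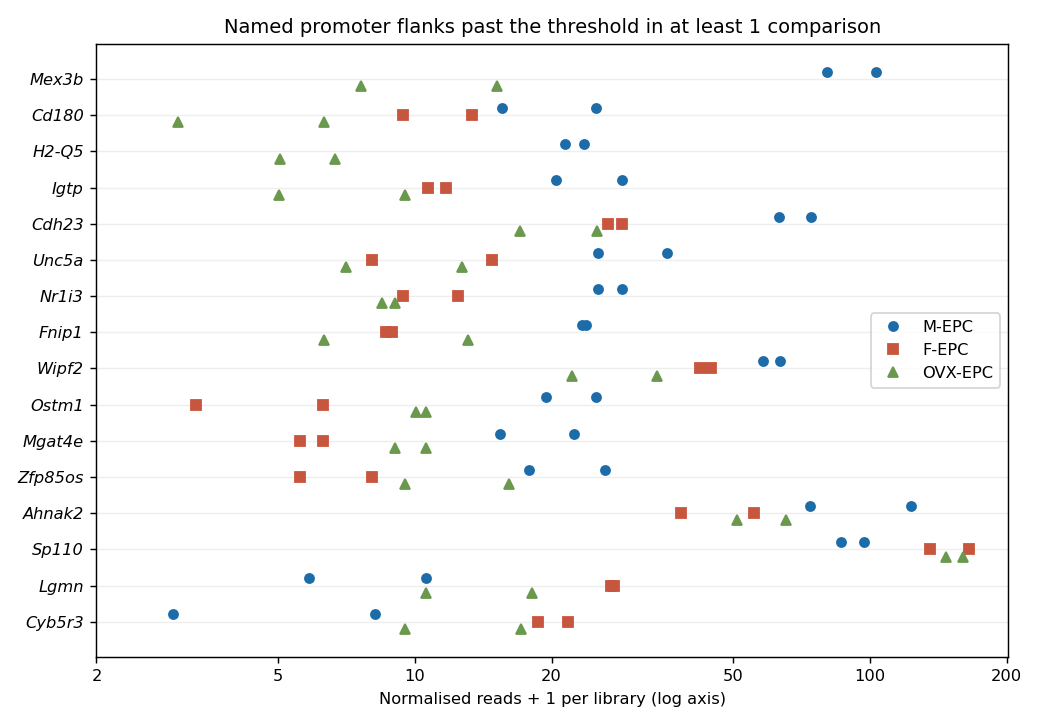
Normalised reads plus 1 per library on a log axis for the flanks named here that passed in at least 1 comparison, blue circles for M-EPC, red squares for F-EPC and green triangles for OVX-EPC. The 2 flanks outside the range of F-EPC reads (Mex3b, H2-Q5) show M-EPC and OVX-EPC on the scale of their own table. Both M-EPC points lie to the right of the other groups in the upper flanks, down to Ahnak2, and to the left in Sp110 and Cyb5r3, while in Lgmn an M-EPC and an OVX-EPC library nearly coincide.

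Mex3b is the gene of an RNA-binding KH domain protein. Its flank, in the coding exon at chr7:82869538-82869937, had 95 and 88 reads for M-EPC and 14 and 7 for OVX-EPC, and F-EPC could not be used there. The log2 fold change was -3.08 ± 0.31 (SE, adjusted p = 1.15e-06, limma). Without an M-EPC library the flank did not pass (adjusted p up to 0.574, limma). The same direction held on both sides of it. The region next to the TSS, at chr7:82866938-82867337, had 35 and 35 reads for M-EPC and 8 and 13 for OVX-EPC (adjusted p = 0.0116, limma), and one farther on, at chr7:82873324-82873723, had 28 and 25 against 2 and 6 (adjusted p = 0.00342, limma). The next region of the gene had 12 and 18 reads against 4 and 12 and did not pass (adjusted p = 0.306, limma).

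Cdh23 and Unc5a were lower in both female groups. Cdh23 encodes a cadherin of the tip links of hair cells, and its flank at chr10:60303464-60303863, over a coding exon, had 61 and 64 reads for M-EPC, 36 and 29 for F-EPC and 15 and 24 for OVX-EPC. The log2 fold change was -1.31 ± 0.25 for F-EPC (adjusted p = 0.00998, limma) and -1.68 ± 0.28 for OVX-EPC (adjusted p = 0.00151, limma). Its core promoter at chr10:60305113-60305512 had 85 and 101 reads for M-EPC, 72 and 64 for F-EPC and 45 and 56 for OVX-EPC and passed in F-EPC (adjusted p = 0.037, limma). The other 2 flanks of Cdh23 had 3 to 12 reads in every library. Unc5a encodes a netrin receptor, and its flank at chr13:55004778-55005177 had 29 and 25 reads for M-EPC, 18 and 8 for F-EPC and 11 and 6 for OVX-EPC. The change was -1.47 ± 0.36 for F-EPC (adjusted p = 0.0376, limma) and -1.61 ± 0.38 for OVX-EPC (adjusted p = 0.0443, limma). At its core promoter, chr13:55003203-55003830, the difference was larger, with 36 and 33 reads against 8 and 8 for F-EPC and 10 and 3 for OVX-EPC.

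**Figure D3:**
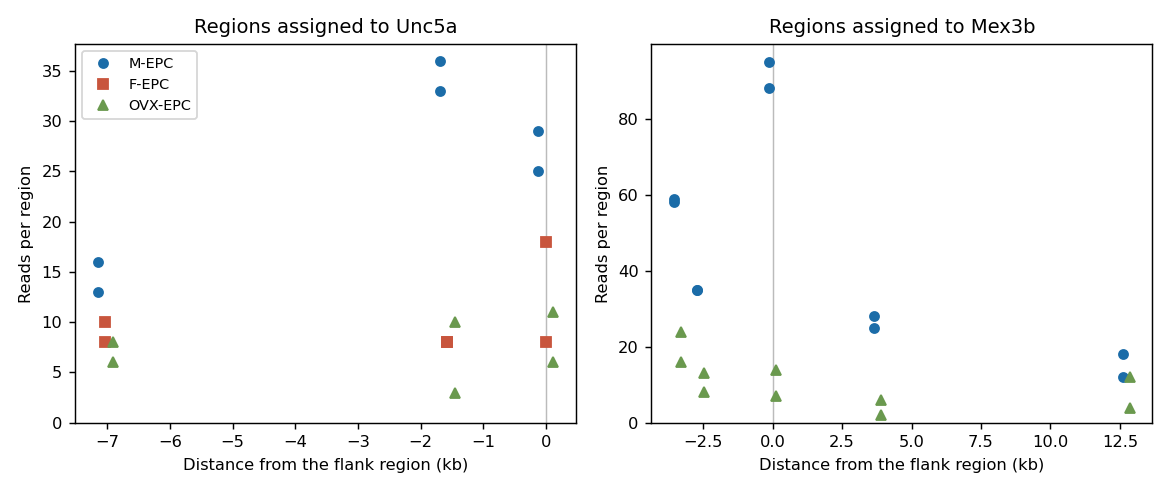
Reads per region and library for nearby regions assigned to Unc5a and Mex3b against the distance in kb from the flank described (grey line at 0), with the read axes starting at 0. In both genes the flank and its near neighbours are highest in the M-EPC libraries, up to 36 reads around Unc5a and 95 at Mex3b. In the farthest region drawn for Mex3b an M-EPC and an OVX-EPC library both have 12 reads. F-EPC is not drawn for Mex3b.

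In Nr1i3, Ostm1, Ahnak2, Igtp and Cd180 over 90% of the 25-base words were unique too. Nr1i3 encodes the xenobiotic receptor CAR, and its flank between genes at chr1:171211648-171212047 had 23 and 25 reads for M-EPC, 11 and 13 for F-EPC and 7 and 8 for OVX-EPC. It was near the threshold in both (adjusted p = 0.0491 and 0.0474, limma). Ostm1 encodes a lysosomal subunit of the chloride transporter ClC-7. The flank at chr10:42680613-42681012 had 20 and 19 reads for M-EPC, 3 and 6 for F-EPC and 9 and 9 for OVX-EPC. It fell in F-EPC, with a log2 fold change of -2.29 ± 0.46 (adjusted p = 0.0157, limma), and in OVX-EPC the value was -1.04 ± 0.38 (adjusted p = 0.204, limma). The 6 intronic regions of Ostm1 farther away had 5 to 16 reads for M-EPC and 5 to 19 for F-EPC. At the flank that passed, Ahnak2 had 102 and 75 reads for M-EPC, 49 and 62 for F-EPC and 47 and 64 for OVX-EPC. Both M-EPC libraries were above the rest but differed from each other. The other Ahnak2 flank, at chr12:112783357-112783756, had 0 reads in each M-EPC and OVX-EPC library and 1 and 12 in F-EPC, and was not tested. The core promoter regions of Ahnak2 did not pass in F-EPC (adjusted p = 0.147 and 0.606, limma). Igtp, an interferon-inducible GTPase gene, had 23 and 20 reads for M-EPC, 14 and 11 for F-EPC and 8 and 4 for OVX-EPC at one of its 2 flanks. Cd180, a toll-like receptor homolog of B cells, had 20 and 15 reads for M-EPC, 11 and 14 for F-EPC and 5 and 2 for OVX-EPC. Both passed in the female groups together (adjusted p = 0.00834 and 0.0257, limma).

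The other lower flanks lay partly in repeats or multicopy sequence. Repeats covered 93.8% of the Fnip1 flank, 77.8% of that of Zfp85os, 74.5% of that of Mgat4e and 70.2% of that of Wipf2. The Fnip1 flank had 35.9% unique words and had 19 and 23 reads for M-EPC against 10 and 9 for F-EPC. The H2-Q5 flank, at a class I histocompatibility gene with close paralogs, had 38.0% unique words and had 19 and 25 reads for M-EPC and 4 and 6 for OVX-EPC (adjusted p = 0.0294, limma), a value made uncertain by the paralogs.

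The other 3 flanks went the other way. The flank of Sp110, a nuclear body gene, at chr1:85592027-85592426 had 80 and 88 reads for M-EPC, 176 and 186 for F-EPC and 137 and 158 for OVX-EPC. Both M-EPC libraries were below the other 4, and the log2 fold change was 0.71 ± 0.18 for F-EPC (adjusted p = 0.0406, limma), a call lost when any 1 of the 4 libraries was left out. In OVX-EPC it was 0.79 ± 0.21 (adjusted p = 0.0993, limma), and in both female groups together 0.73 ± 0.17 (adjusted p = 0.00375, limma). The 3 core promoter regions of Sp110 had 11 to 35 reads for M-EPC, 26 to 76 for F-EPC and 17 to 40 for OVX-EPC, and none passed in these comparisons. Lgmn, the gene of the lysosomal protease legumain, had 8 and 5 reads for M-EPC, 34 and 30 for F-EPC and 9 and 17 for OVX-EPC at chr12:102426315-102426714. The change in F-EPC was 1.80 ± 0.38 (adjusted p = 0.0172, limma). A region between genes next to Lgmn, at chr12:102443668-102444067, had 5 and 8, 28 and 37, and 14 and 14 reads (adjusted p = 0.0157 for F-EPC, limma), while the core promoter of Lgmn had 15 and 12, 21 and 22, and 10 and 20 and did not pass (adjusted p = 0.676 for F-EPC, limma). Cyb5r3, the gene of a cytochrome b5 reductase, had 6 and 2 reads for M-EPC, 27 and 20 for F-EPC and 8 and 16 for OVX-EPC.

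To ask about ovariectomy itself, OVX-EPC was compared with F-EPC over 7897 regions, of which 228 were flanks. No flank passed (0), and over all regions tested 0.0127% did. At an unadjusted p under 0.05 there were 21 flanks by limma, 29 by edgeR and 1 by DESeq2. The 21 are 9.21% of the flanks tested, compared with 6.22% of all regions tested. The flank with the lowest p was that of the retinol dehydrogenase gene Rdh19, with 26 and 25 reads for F-EPC and 6 and 12 for OVX-EPC, a log2 fold change of -1.15 ± 0.37 (adjusted p = 0.768, limma). The serine protease gene Prss56 had 19 and 18 reads for F-EPC, 4 and 6 for OVX-EPC and 2 and 7 for M-EPC, also with an adjusted p of 0.768 by limma. Fbp2, for fructose bisphosphatase of muscle, had 52 and 52 for F-EPC and 20 and 26 for OVX-EPC, and its centre lies close to another annotated TSS of the gene. On the higher side Mfsd2b, a sphingosine 1-phosphate transporter, had 22 and 5 for F-EPC and 17 and 23 for OVX-EPC. Ostm1, Nr1i3, Fnip1, Mgat4e, Zfp85os and Cd180 reached 10 normalised reads in fewer than 2 female libraries and did not enter this comparison.

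Beyond single flanks, the flanks as a class were lower in the female groups than in M-EPC, relative to other autosomal regions. Over all 773 flanks without a filter, the median log2 fold change of F-EPC was -0.23, compared with 0.06 in the other autosomal regions, -0.41 in core promoters and 0.15 outside promoters. Of these flanks 63.0% were below 0, and of the other regions 46.7%. The side of 0 depended on the scaling, and with TMM factors of the tested regions the medians were -0.052 in flanks and 0.24 in the others, with 52.1% and 37.9% below 0. In OVX-EPC the median of 1829 flanks was -0.17, compared with 0.00 in the others, -0.29 in core promoters and 0.08 outside promoters, and with TMM factors it was -0.031 and that of the others 0.14. The difference between flanks and others was -0.30 for F-EPC and -0.17 for OVX-EPC. Its standard error, from the differences between replicates in the same score, was 0.09 and 0.05. Most of that error came from M-EPC, whose 2 libraries differed in this score by 0.17 in the regions with F-EPC reads, compared with 0.05 for F-EPC. On all autosomes the M-EPC libraries differed by 0.10 and those of OVX-EPC by 0.02. The flanks at 1 to 2 kb and at 2 to 3 kb had medians of -0.24 and -0.21 for F-EPC and of -0.20 and -0.15 for OVX-EPC. In OVX-EPC against F-EPC the flank median was 0.06 and that of the others -0.02, a difference of 0.08 with a standard error of 0.02. This difference was 0.028 without OVX-EPC replicate 1 and 0.10 without OVX-EPC replicate 2, and it was -0.0072 in regions with at least 30 reads. These are descriptions of classes, since regions of a library are not replicates.

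GC content moved with these medians. With each library's trend of value on GC content removed, the core promoter medians shrank to -0.11 for F-EPC and -0.08 for OVX-EPC. The flank medians moved little, to -0.20 and -0.17, and were then lower than those of core promoters. Within a GC content of 45% to 50%, the median was -0.18 in 271 flanks, -0.22 in 209 core promoters and 0.13 in 8395 regions outside promoters in F-EPC. At 60% or more it was -0.36 in 60 flanks, -0.44 in 1705 core promoters and -0.11 in 355 regions outside promoters. In each of the 5 bands of GC content the flanks were lower than the regions outside promoters, in F-EPC and in OVX-EPC.

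**Figure D4:**
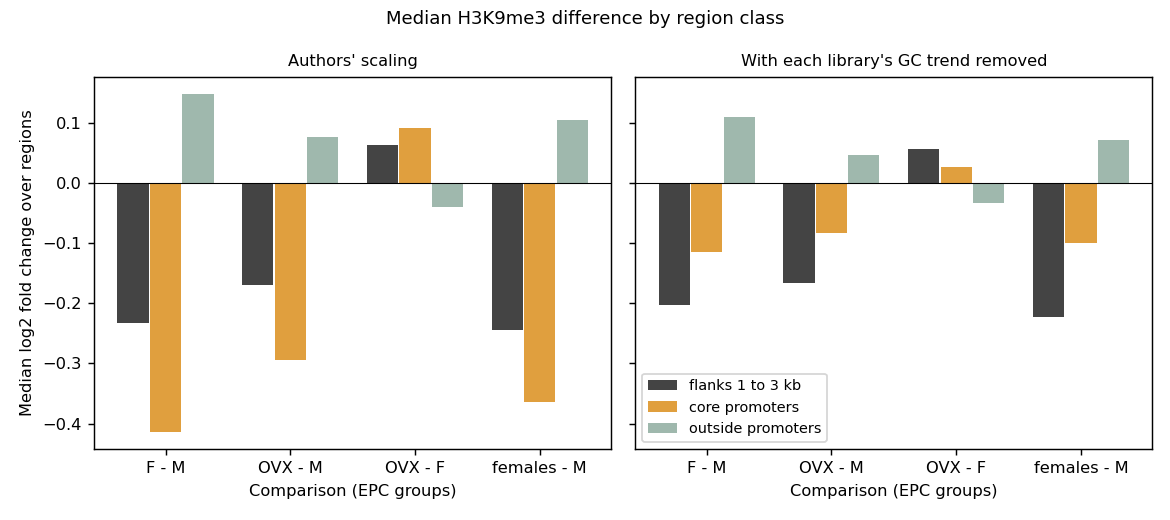
Median log2 fold change over flanks, core promoters and regions outside promoters in each comparison, on the authors' scaling (left) and with each library's GC trend removed (right). Flanks stay near -0.20 for F-EPC minus M-EPC on both sides (-0.23 and -0.20), while core promoters go from -0.41 to -0.11.

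The difference depended on the level of the regions. In regions with a mean of under 5 normalised reads the flank median in F-EPC was -0.10 and that of other autosomal regions 0.29. From 5 to 10 reads the medians were -0.27 and 0.12, and from 10 to 20 reads -0.43 and -0.18. At 20 or more reads the order turned, with -0.15 in 66 flanks and -0.36 in 1673 others. In OVX-EPC the medians at 20 or more were -0.22 in 165 flanks and -0.27 in 3767 others. The strong flanks include the Sfi1 stretch of chromosome 11. A fold change on the log2(value + 1) scale is compressed at low values.

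**Figure D5:**
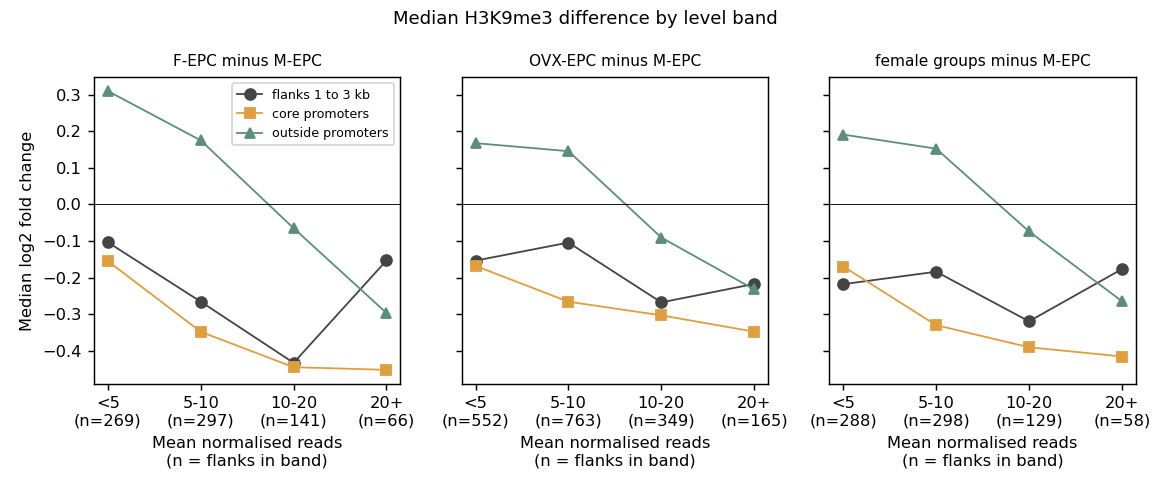
Median log2 fold change against the band of mean normalised reads for flanks, core promoters and regions outside promoters in the 3 comparisons with M-EPC, with the number of flanks under each band. Flanks lie far below the regions outside promoters in the low bands and at or above them in the band of 20 or more reads.

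As a share of all autosomal region reads, flanks took 4.31% (95% exact Clopper-Pearson interval 4.22 to 4.40) and 4.11% (4.03 to 4.19) in M-EPC where F-EPC had reads. F-EPC had 3.85% (3.78 to 3.92) and 3.70% (3.63 to 3.78), below both M-EPC libraries. OVX-EPC had 4.12% (4.03 to 4.20) and 3.79% (3.72 to 3.87), so one library overlapped M-EPC. These intervals cover counting error only. The difference of F-EPC from M-EPC was -0.43 percentage points and that of OVX-EPC from F-EPC 0.18. The two-sided exact permutation p was 0.333 for the first, the smallest that 2 libraries against 2 allow, and 0.667 for the second. On all autosomes M-EPC had 4.10% and 3.97% and OVX-EPC 3.83% and 3.65% (exact permutation p = 0.333). For both female groups against M-EPC it was 0.267. Core promoters differed by more, with 20.3% and 17.0% for M-EPC against 13.7% and 15.7% for F-EPC. The log2 ratio of flank to core promoter reads ran from -2.24 to -2.04 for M-EPC and from -2.08 to -1.83 for F-EPC and overlapped (exact permutation p = 0.667).

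Of the gene families among the flanks, 1 member passed, the noncoding gene Zfp85os of the zinc finger list. It was lower in F-EPC, with 14 and 26 reads for M-EPC, 6 and 8 for F-EPC and 8 and 15 for OVX-EPC. Its other flanks, at chr13:67749069-67749468 and chr13:67749898-67750297, did not pass in F-EPC (adjusted p = 0.833 and 0.440, limma). Of 15 zinc finger family flanks with F-EPC reads, 10 were tested in F-EPC against M-EPC, with a median log2 fold change of -0.40 over the 15. Of 64 zinc finger family flanks in 50 genes, with a mean of 22.1 reads, 44 were tested in OVX-EPC against M-EPC and 0 passed, with a median log2 fold change of -0.13 over all 64. Olfactory and vomeronasal receptor flanks, 88 in number with a mean of 6.23 reads, had a median of 0.32 for OVX-EPC over all 88 and of 0.29 for F-EPC over the 21 with F-EPC reads, on the other side of 0 from the flanks as a whole, and none of the 14 and 5 tested passed. The 40 protocadherin flanks had a median of -0.12 for OVX-EPC, with 25 tested and 0 passed. The 34 microRNA gene flanks had a median of -0.37 for OVX-EPC, with 11 tested, and 18 of them a median of -0.44 for F-EPC, with 6 tested. The 17 flanks of developmental transcription factors had a median of -0.61 for OVX-EPC and 9 of them one of -0.42 for F-EPC, with 2 tested in each, and 0 passed in either family. Solute carrier flanks had a median of -0.0022 for OVX-EPC over 34 and -0.14 for F-EPC over 12. Ribosomal protein flanks had one of -0.20 for OVX-EPC over 24 and 0.23 for F-EPC over 13.

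Lists of inflammatory and angiogenic genes, drawn up here around those the study examined, had few flanks. From the 15 proinflammatory genes listed there were flanks of Tnf and Ccl2. Tnf, the gene of the cytokine TNF, had 9 and 6 reads for M-EPC and 14 and 13 for OVX-EPC and did not pass (adjusted p = 0.384, limma). Ccl2, the monocyte chemokine, had 7 and 10 reads for M-EPC, 4 and 4 for F-EPC and 3 and 8 for OVX-EPC and was not tested. From the 12 proangiogenic genes there were 2 flanks of Itgb3, with 1 to 12 reads, and 1 of Kdr, a VEGF receptor gene, with 6 and 7 reads for M-EPC and 5 and 0 for OVX-EPC, all below the filter. Among H3K9 methylation genes Morc2a and Dnmt3a, which methylates DNA, had 0 to 11 reads. Imprinted genes had 11 flanks, of which 6 were tested in OVX-EPC and 0 passed. H19 had 21 and 30 reads for M-EPC and 29 and 33 for OVX-EPC, and Meg3 had 15 and 17 for M-EPC, 33 and 28 for F-EPC and 15 and 22 for OVX-EPC. Of the germline list 4 flanks were present, 3 of them of Tdrd9, and 0 passed. Chemokine, interleukin and receptor genes had 15 flanks and interferon-induced genes 13, where the symbol pattern also took Mxd3 and Mxi1, which are not interferon genes. None of the flanks these patterns took passed, and the interferon pattern did not take Igtp and Sp110, described above.

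Markers of other cell types had few flanks. The monocyte and macrophage list had 2 flanks, with Csf1r at 14 and 12 reads for M-EPC and 16 and 14 for OVX-EPC and Itgam at 6 and 5 reads and 5 and 1. The erythroid and megakaryocyte list had 1 flank, of Itga2b, with 3 to 9 reads, and the mesenchymal list 1, of Col1a1, with 3 to 11 reads. The part of other cells in the results above was not tested.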

How the data were processed

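The 6 H3K9me3 CUT&Tag libraries were analysed. The authors sequenced paired reads of 25 bases, aligned them to mm10 with Bowtie2 (the submitters' processing notes name BWA and MACS2), removed duplicates and reads of mapping quality under 10 and called peaks with MACS. Removing duplicates caps strong regions, and the quality filter lowers repeats. They deposited 3 tables, one per pair of groups, with a normalised signal per region and library. The deposited signal was whole reads divided by a factor per library and table (100% whole within 0.01), so tables were not mixed, and reads per library were recovered. Their fold change and p-value columns were not used.

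Flanks were taken from the authors' annotation. The test was limma 3.58.1 (R 4.3.3) with trend, on log2(deposited value + 1), in the libraries of each comparison, where at least 2 libraries had 10 or more, with Benjamini-Hochberg adjustment at 0.05. For both female groups against M-EPC, median-of-ratios factors over the 6 libraries were used. Medians over flanks used all regions with a read. edgeR 4.0.16 and DESeq2 1.42.0 on the recovered reads, TMM factors, pseudocounts of 0.1 and 5, other filters, GC trend removal, a replicate block and each library left out were alternatives. The regions named were up to 15 past the threshold in each direction of a comparison, or up to 5 by unadjusted p where fewer than 5 passed, the 15 highest flanks, genes with 4 or more flanks, and the gene lists. One region that the rule names is counted in the totals and not reported here. The flanks, lists and comparisons were chosen with earlier results of these data known. Depth was 288353 to 573821 reads in regions, with both F-EPC libraries incomplete. Uniqueness was the share of 25-base words that occur once in GRCm38.p6.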

Additional observations from a re-analysis of the deposited data

How the results depend on the processing

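Depth limits single flanks: 1123 of 1830 never passed the filter on low values, and each comparison rests on 2 libraries a group. Of 755 settings of named flanks, 607 kept their side of the threshold, 127 lost the call and 21 gained it. The 607 include flanks in comparisons they did not pass, such as OVX-EPC minus F-EPC, where staying uncalled counted as kept. They are therefore no measure of how stable the calls are. No flank that passed turned direction (0), while Unc5a (-0.64 to 0.23) and Sp110 (-0.093 to 0.18), which did not pass in OVX-EPC minus F-EPC, crossed 0 with a library left out. The causes of the following shifts were not tested, and no share of calls over all regions was taken in these settings. The count of flanks past the threshold was 12 for F-EPC minus M-EPC, with 1 by DESeq2, 3 with TMM factors of the tested regions (chosen after seeing the data), 5 with at least 30 normalised reads, and 0 to 5 with a library left out. For OVX-EPC minus M-EPC it was 6, with 2 by DESeq2, 3 with a pseudocount of 0.1, 10 with at least 30 reads, 10 without a filter, and 0 to 3 with a library left out. For OVX-EPC minus F-EPC it was 0, and 0 to 1 with a library left out, the 1 without OVX-EPC replicate 2. For the female groups minus M-EPC it was 14, with 2 by DESeq2, 6 with at least 30 reads, and 4 to 14 with a library left out.

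The median log2 fold change of flanks minus other autosomal regions turned sign where regions had at least 30 reads, to 0.27 for F-EPC minus M-EPC, 0.064 for OVX-EPC minus M-EPC, -0.0072 for OVX-EPC minus F-EPC and 0.17 for the female groups. With at least 10 reads, an alternative chosen after seeing the data, it was -0.12, -0.049, 0.041 and -0.11. With a pseudocount of 5 it was -0.19 for F-EPC minus M-EPC, 0.060 for OVX-EPC minus F-EPC and -0.17 for the female groups. With a library left out it ran from -0.34 to -0.23, from -0.24 to -0.14, from 0.028 to 0.10 and from -0.33 to -0.18.

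The flank share of promoter reads in place of all region reads turned the difference to 0.93, 0.47, -0.089 and 0.89 percentage points in the same order. Core promoters are then most of the denominator, and the cause of the turn was not tested. Over flanks with at least 30 reads it was 0.90 for F-EPC, 0.31 for OVX-EPC and 0.87 for the female groups minus M-EPC, and with at least 10 reads -0.11, -0.080 and -0.12. The band at 2 to 3 kb alone gave -0.14, -0.11 and -0.086, and the band at 1 to 2 kb gave -0.29 for F-EPC. With a library left out the differences kept their sign, from -0.53 to -0.34 for F-EPC and from -0.39 to -0.20 for OVX-EPC minus M-EPC. Without the Sfi1 stretch they were -0.45 and -0.35.

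Deviations of same-numbered libraries correlated at -0.052 to -0.013, so the replicate numbers were not taken as pairs. With the replicate number as a block, 11, 7, 0 and 13 flanks passed. With the GC trend removed as well the block gave 15, 12, 0 and 16.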
